A study of Mus musculus with 10 samples.

Results

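Keratin-associated proteins (KAPs) are the matrix proteins of the hair shaft, and the Krtap genes encode them. Of the 24452 named genes in the count table, 54 carried a symbol beginning with Krtap, and these are the genes described here. They were split by subfamily number. Numbers 6, 7, 8, 16, 19, 20, 21 and 22, named for proteins rich in glycine and tyrosine, gave 16 high glycine-tyrosine (HGT) genes. The other numbers gave 38 genes, the high-sulfur and ultrahigh-sulfur families, called sulfur-rich below. RNA was sequenced from full-thickness back skin of C57BL/6 mice, from treated but nontumoral areas, with 1 library from each of 5 wild-type (WT) and 5 Zfp36ΔARE mice. Zfp36ΔARE mice lack an AU-rich instability element in the 3′ untranslated region of the endogenous Zfp36 gene and overproduce its product, the mRNA-binding protein tristetraprolin, throughout the body. The change is therefore not limited to 1 cell type. Both genotypes had received 400 nmol DMBA (7,12-dimethylbenz[a]anthracene, a mutagen) once, as 7-week-old mice. Repeated applications of 10 nmol TPA (12-O-tetradecanoylphorbol-13-acetate, a tumor promoter) followed for 20 weeks, so no library was from untreated skin.

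Hair is built in the follicle during its growth phase. Matrix cells at the follicle base divide, move upward and harden into the shaft, where hair keratins assemble into filaments and KAPs fill the space between them. Sulfur-rich KAPs are cross-linked through the disulfide bonds of their cysteines, whereas HGT proteins carry glycine-rich and tyrosine-rich stretches, and both kinds are used in the cortex and cuticle of the shaft. Transcription factors such as Hoxc13, Foxn1, Lef1 and Msx2 act upstream of hair keratin and KAP genes. In bulk skin, a smaller number of shaft-forming cells and less mRNA in each of them cannot be told apart.

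The subfamily numbers were checked against the proteins predicted from the coding sequences of the GENCODE annotation of the mouse GRCm38 genome, the build that mm10 denotes. The 16 HGT proteins had a median of 62.8% glycine plus tyrosine and 8.09% cysteine. Among the 38 sulfur-rich proteins the medians were 6.54% glycine plus tyrosine and 30.4% cysteine. Krtap16-1 went against its class, with 20.1% cysteine and 3.78% glycine plus tyrosine over 502 residues, and Krtap7-1 held the next lowest glycine plus tyrosine share of the HGT group, at 29.9%. In the other direction, Krtap28-13 was rich in both, with 42.8% cysteine and 42% glycine, and Krtap15 had 4.0% cysteine against 24.0% glycine plus tyrosine. Glycine plus tyrosine also exceeded cysteine in Krtap14 (17.4% against 8.98%) and Krtap13-1 (19.6% against 9.52%). The same held by smaller margins in Krtap13, Krtap24-1, Krtap26-1, Krtap5-2 and Krtap5-3. In Krtap5-2 and Krtap5-3 cysteine was high too, at 34.6% and 35.1%. All were kept as sulfur-rich by number, so sums over that class are not sums of cysteine-rich proteins alone. All 54 genes had 1 exon. On chromosome 16 lay 15 of the HGT genes, within 639 kb, and 8 sulfur-rich genes lay around them. Chromosome 11 held Krtap16-1 and 21 sulfur-rich genes, and the rest were on chromosomes 7 (5 genes), 10 (3 genes) and 1 (1 gene).

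**Figure D1:**
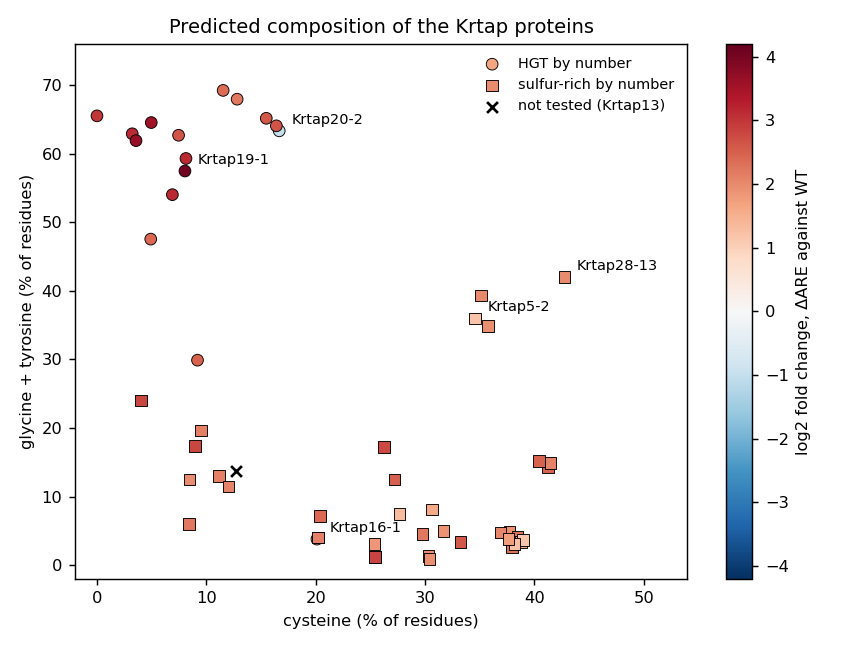
Predicted protein composition, with cysteine on the horizontal axis and glycine plus tyrosine on the vertical axis, both in percent of residues. Circles are HGT and squares sulfur-rich genes by number, the fill gives the log2 fold change between genotypes, and the cross is Krtap13, which was not tested. Krtap16-1 lies among the squares at 3.78% glycine plus tyrosine, and Krtap20-2, inside the HGT group, is the only point with a negative fold change.

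Stretches of coding sequence make the difference between the classes visible. Each line below is a window of 30 codons inside the coding exon of a gene whose values the results turn on, written along the gene's strand in GRCm38 coordinates. In the first 3, HGT genes, capitals mark glycine and tyrosine codons, and in the last 2 they mark cysteine codons.
Krtap19-1, chr16:88869212-88869301, minus strand: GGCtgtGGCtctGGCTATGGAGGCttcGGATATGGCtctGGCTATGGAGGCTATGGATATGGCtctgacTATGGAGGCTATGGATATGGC
Krtap8-1, chr16:89487770-89487859, minus strand: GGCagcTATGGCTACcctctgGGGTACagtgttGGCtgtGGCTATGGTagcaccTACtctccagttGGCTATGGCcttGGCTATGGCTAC
Krtap20-2, chr16:89205953-89206042, plus strand: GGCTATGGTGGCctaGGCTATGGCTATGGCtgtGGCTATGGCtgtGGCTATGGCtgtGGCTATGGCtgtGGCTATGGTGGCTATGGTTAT
Krtap5-1, chr7:142296596-142296685, minus strand: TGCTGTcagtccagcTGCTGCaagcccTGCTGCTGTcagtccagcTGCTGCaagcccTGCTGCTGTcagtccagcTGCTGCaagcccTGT
Krtap16-1, chr11:99986355-99986444, minus strand: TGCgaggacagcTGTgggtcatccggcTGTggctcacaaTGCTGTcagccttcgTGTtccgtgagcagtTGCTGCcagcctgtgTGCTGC
Glycine or tyrosine took 24 of the 30 codons shown for Krtap19-1, 18 for Krtap8-1 and 25 for Krtap20-2. Cysteine took 15 of 30 in the Krtap5-1 window and 10 of 30 in the Krtap16-1 window, although Krtap16-1 carries a number of the HGT group.

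Such repeats can make reads from neighboring genes hard to assign. Of the 54 genes, 20 shared no 50-base stretch of transcript with another Krtap gene and 39 shared less than 10% of their 50-base stretches. The largest shares were 41.3% for Krtap3-3 with Krtap3-2 and 40.7% for Krtap31-2 with Krtap31-1. Among HGT genes the largest was 16.8%, for Krtap19-1 with Krtap19-2. How reads with more than 1 match were counted is not given in the sources used here, so the values of these genes are the least certain.

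Libraries held 19595024 to 36419553 counts assigned to genes. Zfp36 was 1.33 log2 units higher in Zfp36ΔARE skin (SE 0.12, edgeR adjusted p = 0.00195), with 1824 to 2496 normalized counts in WT and 4196 to 6134 in Zfp36ΔARE libraries, which do not overlap. The epidermal keratin Krt5, a marker of the labelled tissue, was at 85462 to 143989 normalized counts in WT and 85762 to 142643 in Zfp36ΔARE libraries. Xist was high in the 5 WT libraries and in Zfp36ΔARE replicate 1, and Y-linked counts were high in Zfp36ΔARE replicates 2 to 5. Sex and genotype therefore cannot be told apart outside Zfp36ΔARE replicate 1, and the values of that library are given beside the results. WT replicates 1 and 3 stood apart in hair genes, with 598 and 90.5 summed hair keratin CPM (counts per 1000000, after scaling) against 3063 to 4068 in the other WT libraries, so counts of calls are given with and without them. They were singled out by the same hair genes that are compared, and values without them are not independent of that choice.

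The Krtap genes together took a larger share of counts in every Zfp36ΔARE library than in any WT library. In WT replicates 1 to 5 the share was 0.0492%, 0.749%, 0.00476%, 0.947% and 0.707% of assigned counts. In Zfp36ΔARE replicates 1 to 5 it was 2.28%, 2.40%, 4.59%, 2.09% and 1.55%. The groups did not overlap, and within WT the Krtap total ran from 1029 counts in replicate 3 to 258743 in replicate 4. Mean shares were 0.491% ± 0.434 (SD, n = 5) in WT and 2.58% ± 1.17 (SD, n = 5) in Zfp36ΔARE mice, a ratio of 5.25, and the ratio was 3.22 without WT replicates 1 and 3. WT replicate 3 was the lowest of the 10 libraries for 52 of the 53 genes tested below, and WT replicates 1 and 3 were the lowest pair for 50. Zfp36ΔARE replicate 3 was the highest library for 37 of these 53. Even so, 53 Krtap genes had at least 1 count in WT replicate 1 and 48 in WT replicate 3.

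**Figure D2:**
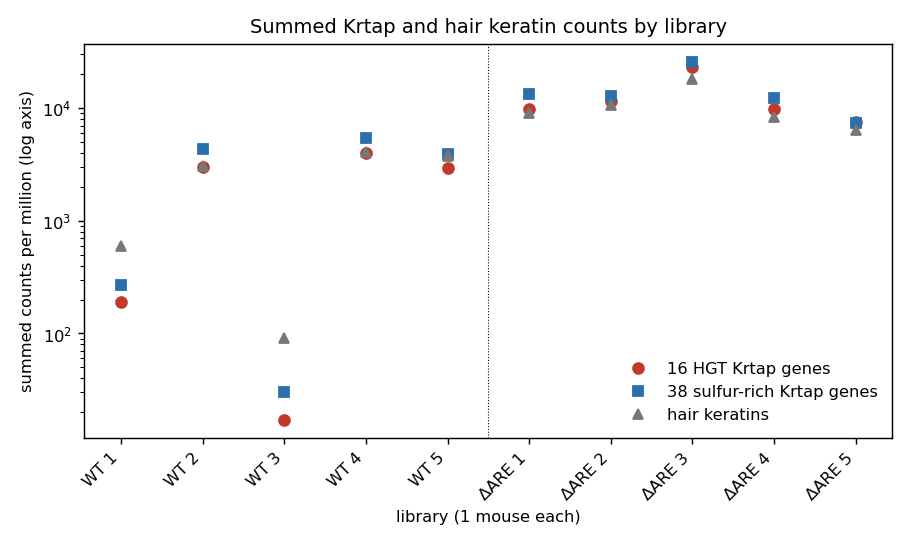
Summed CPM (log axis) of the HGT genes (circles), the sulfur-rich genes (squares) and 15 hair keratins (triangles) in each library, with WT on the left and Zfp36ΔARE on the right of the dotted line. The sums of HGT genes run from 17.1 in WT replicate 3 to 23284 in Zfp36ΔARE replicate 3, and WT replicates 1 and 3 lie far below the other 3 WT libraries.

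Of the 54 genes, 53 passed the filter on low counts and were tested. Krtap13 was not, with 4 counts over the 10 libraries. Log2 fold changes (Zfp36ΔARE against WT) were positive for 52 of the 53, with a median of 2.21, while the median over all 15543 tested genes was 0.0076. Called means a fold above 2 with an adjusted p under 0.05 in edgeR's quasi-likelihood test across all tested genes. By that rule 7 Krtap genes rose (3 HGT and 4 sulfur-rich), where 1.67% of all tested genes did, and 0 fell, where 6.64% of all tested genes did. At an unadjusted p under 0.05, 32 were higher and 0 lower, where 22.5% and 24.6% of all tested genes were. DESeq2 called 25 higher and limma-voom 26, against 2.2% and 2.23% of all tested genes, and both called 0 lower, against 6.97% and 5.89%. For 39 of the 53 genes each Zfp36ΔARE library lay above each WT library, against 11.2% of all tested genes, and for 0 the reverse held, against 11.9%. Zfp36ΔARE replicate 1, the library that matches WT in Xist and Y-linked counts, lay above the 5 WT libraries for 48 of 53. The share of all tested genes with that arrangement was not computed, and these values come from 1 mouse.

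The small number of calls went with large errors. Standard errors of the 53 log2 fold changes ran from 0.72 to 1.35, and the median adjusted p was 0.0932. Each of the 7 called genes had fewer than 10 counts in at least 1 WT library, and among the 27 genes with at least 10 counts in every library edgeR called 0, with 20 higher at an unadjusted p under 0.05. In that comparison 1.25% of all tested genes were called higher and 22.4% were higher at the unadjusted threshold. Without WT replicates 1 and 3, the median standard error was 0.37 in place of 0.99, and 43 Krtap genes were called higher (14 HGT and 29 sulfur-rich), against 1.24% of all tested genes, and again 0 lower, against 2.11%. The 43 held the 7 called in the full comparison. Fold changes were smaller in that comparison, with a median of 1.51.

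**Figure D3:**
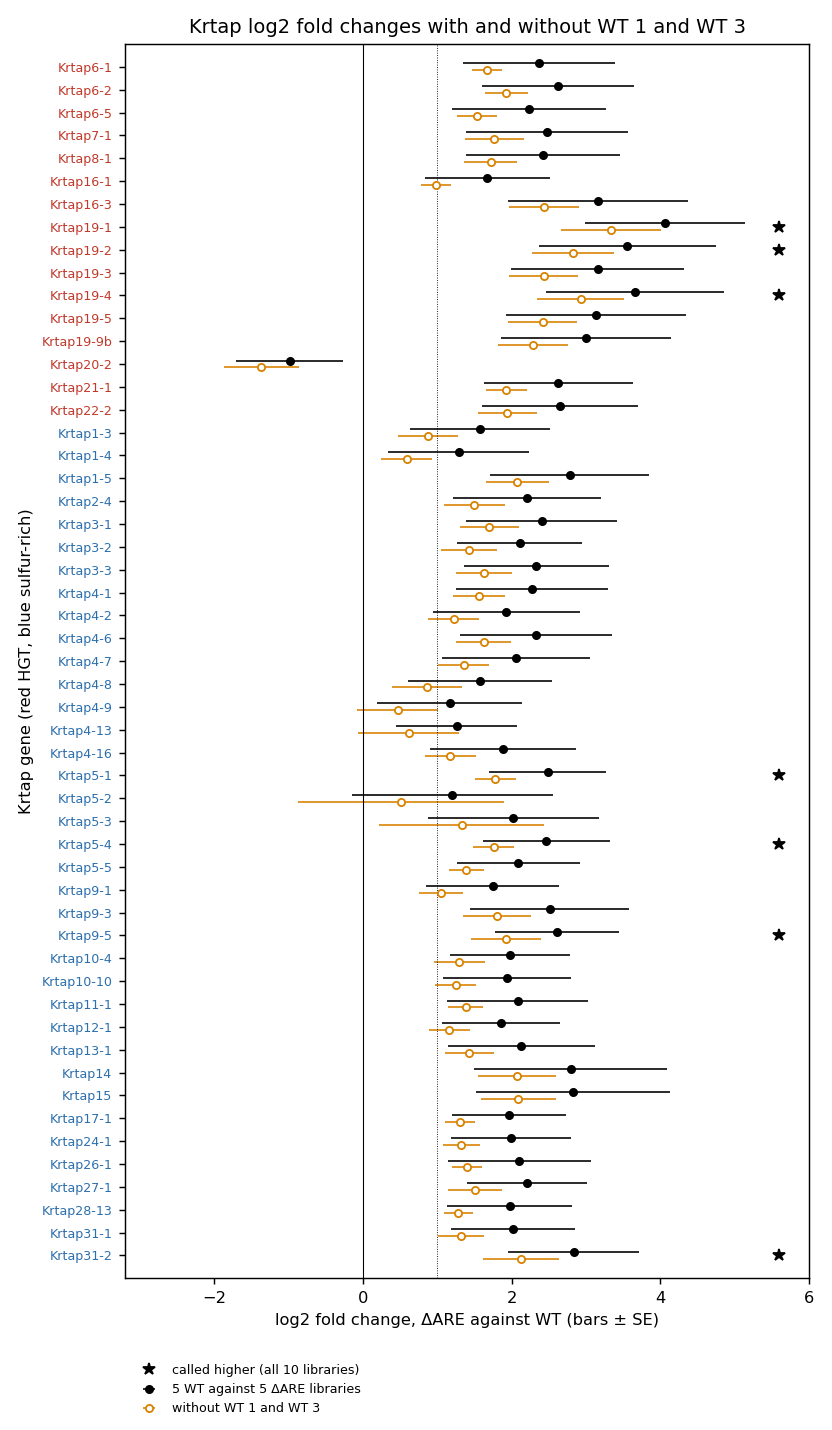
Log2 fold changes (± SE) of the 53 tested Krtap genes with all 10 libraries (filled) and without WT replicates 1 and 3 (open), with HGT names in red and sulfur-rich names in blue. Stars mark the 7 genes called with all libraries, the dotted line is a 2-fold difference, and the points of Krtap20-2 are the only ones left of 0.

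Among HGT genes, the Krtap19 subfamily had the largest differences. These genes encode short glycine-tyrosine-rich shaft proteins and lie side by side on chromosome 16. Krtap19-1 was at 12.9, 279, 2.44, 578 and 717 normalized counts in WT replicates 1 to 5 and at 1901, 5038, 12272, 3864 and 3440 in Zfp36ΔARE replicates 1 to 5. The highest WT library was below the lowest Zfp36ΔARE library. Its log2 fold change was 4.06 (SE 1.08, edgeR adjusted p = 0.0201), the largest of any tested gene in the table. Krtap19-4 and Krtap19-2 followed, at 3.66 (SE 1.19, edgeR adjusted p = 0.0396) and 3.56 (SE 1.19, edgeR adjusted p = 0.0438), and their groups did not overlap either. Krtap19-5, which had the most counts of the subfamily, was at 2.44 to 4035 normalized counts in WT and 10653 to 37834 in Zfp36ΔARE libraries, a log2 fold change of 3.14 that missed the threshold (SE 1.21, edgeR adjusted p = 0.0683). The 6 Krtap19 genes ranged from 3.0 to 4.06, and their neighbor Krtap16-3, at 3.16, lay in that range. Without WT replicates 1 and 3 these 7 genes were all called higher, with a median of 2.44.

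The other HGT genes on chromosome 16 had smaller differences, and none of those 8 was called with all libraries. Without WT replicates 1 and 3, 7 of the 8 were called higher, against 1.24% of all tested genes, with a median of 1.74. Krtap7-1 and Krtap8-1, the sole members of their subfamilies here, had the highest Zfp36ΔARE levels per kilobase of the family, at 146791 and 138394 normalized counts per kilobase. Krtap7-1 was at 1423, 25583, 133, 33421 and 21496 normalized counts in WT replicates 1 to 5 and at 79527, 81260, 172019, 76006 and 46975 in Zfp36ΔARE replicates 1 to 5. Every Zfp36ΔARE library was above the highest WT library, and the log2 fold change was 2.47 (SE 1.08, edgeR adjusted p = 0.0996). Krtap8-1 differed by 2.42 (SE 1.03, edgeR adjusted p = 0.0926), and its groups did not overlap. The 3 Krtap6 genes ranged from 2.23 to 2.62, with Krtap6-5 the most counted, and Krtap21-1 and Krtap22-2 were at 2.63 and 2.65. Krtap16-1, the cysteine-rich protein numbered with the HGT group, was at 1.67 (SE 0.84, edgeR adjusted p = 0.144), below the other HGT genes apart from Krtap20-2 and within the sulfur-rich range.

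Krtap20-2 was the exception in the family. It was at 45.1, 91.3, 0, 69.9 and 11.3 normalized counts in WT replicates 1 to 5 and at 24.7, 23.5, 25.3, 21.4 and 15.8 in Zfp36ΔARE replicates 1 to 5. The Zfp36ΔARE values were close together and lay inside the WT range. The log2 fold change was -0.99 (SE 0.72, edgeR adjusted p = 0.30), and it was -1.37 without WT replicates 1 and 3 (edgeR adjusted p = 0.0946). Under limma-voom it was 0.12, so the direction was not stable. Its share of all Krtap counts was 0.00193% to 0.00398% in Zfp36ΔARE libraries and 0.00618% to 0.368% in the 4 WT libraries that had any count. Krtap20-2 lies inside the chromosome 16 group, between Krtap6-5 and Krtap21-1, whose log2 fold changes were 2.23 and 2.63. The transcript shared 2.68% of its 50-base stretches with another Krtap gene.

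Sulfur-rich genes had positive fold changes without exception among those tested. The 37 tested genes ranged from 1.17 to 2.83 with a median log2 fold change of 2.08, and groups did not overlap for 24 of them. Krtap31-2 was at 6.45, 93.7, 0, 181 and 219 normalized counts in WT replicates 1 to 5 and at 199, 809, 773, 935 and 868 in Zfp36ΔARE replicates 1 to 5. Zfp36ΔARE replicate 1 lay inside the WT range, whereas the other Zfp36ΔARE libraries lay above it. Its log2 fold change of 2.83 (SE 0.88, edgeR adjusted p = 0.0336) was called. Krtap9-5 had the same arrangement, at 0 to 272 normalized counts in WT, 236 in Zfp36ΔARE replicate 1 and 771 to 940 in the other Zfp36ΔARE libraries, with a called log2 fold change of 2.61 (SE 0.84, edgeR adjusted p = 0.0374).

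The ultrahigh-sulfur Krtap5 genes on chromosome 7 encode proteins rich in cysteine and serine that are known from the cuticle. Krtap5-1 was at 3.68, 107, 0, 152 and 84.6 normalized counts in WT replicates 1 to 5 and at 401, 402, 550, 378 and 239 in Zfp36ΔARE replicates 1 to 5, and the groups did not overlap. Its log2 fold change was 2.48 (SE 0.79, edgeR adjusted p = 0.0354), and that of Krtap5-4 was 2.47 (SE 0.85, edgeR adjusted p = 0.0484). Both were called. The most counted member, Krtap5-5, was at 15.9 to 1371 normalized counts in WT and 2297 to 3641 in Zfp36ΔARE libraries, with a log2 fold change of 2.09 (edgeR adjusted p = 0.0753). Krtap5-2 behaved differently from its neighbors. It was at 29.5, 4.04, 4.88, 94.1 and 850 normalized counts in WT replicates 1 to 5 and at 5.99, 1085, 310, 187 and 669 in Zfp36ΔARE replicates 1 to 5. WT replicate 5 was above 4 of the Zfp36ΔARE libraries, and Zfp36ΔARE replicate 1 was close to the lowest WT libraries. The log2 fold change was 1.2 (SE 1.35, edgeR adjusted p = 0.503). Krtap5-3, at 2.44 to 465 normalized counts in WT and 29.2 to 749 in Zfp36ΔARE libraries, was also lowest among Zfp36ΔARE libraries in replicate 1.

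On chromosome 11, differences were uneven within subfamilies. Krtap1-5, whose product is a high-sulfur protein, was at 42.7 to 11398 normalized counts in WT and 22063 to 78990 in Zfp36ΔARE libraries, a log2 fold change of 2.78 (SE 1.07, edgeR adjusted p = 0.069). Krtap1-3 and Krtap1-4, from the same subfamily, were at 1.58 and 1.29 and overlapped between groups. In the Krtap4 subfamily of cysteine-rich proteins, values ran from 1.17 for Krtap4-9 to 2.33 for Krtap4-6, and Krtap4-1, the most counted, was at 2.27 (SE 1.02, edgeR adjusted p = 0.108). Krtap4-9 was at 150, 2267, 17.1, 2902 and 1472 normalized counts in WT replicates 1 to 5 and at 6504, 2691, 2161, 3104 and 843 in Zfp36ΔARE replicates 1 to 5. Only Zfp36ΔARE replicates 1 and 4 exceeded the highest WT library, and the difference was not called (SE 0.97, edgeR adjusted p = 0.364). The 3 Krtap3 genes ranged from 2.10 to 2.40, with Krtap3-1 the highest in count, and the 3 Krtap9 genes from 1.74 to 2.61, with Krtap9-3 the most counted at 2.51. Krtap2-4 was at 2.21 and Krtap17-1 at 1.97.

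The sulfur-rich genes around the HGT group on chromosome 16 included those of the class with the largest uncalled differences. Krtap15 and Krtap14 ranked just after Krtap7-1 and Krtap8-1 in Zfp36ΔARE level, at 95659 and 51136 normalized counts per kilobase. Krtap15 was at 227, 19690, 34.2, 23980 and 12694 normalized counts in WT replicates 1 to 5 and at 64995, 63516, 169644, 67565 and 34136 in Zfp36ΔARE replicates 1 to 5. The groups did not overlap, and the log2 fold change was 2.82 (SE 1.30, edgeR adjusted p = 0.115). Krtap14 was at 2.79 (SE 1.30, edgeR adjusted p = 0.116). Differences of 1.99 to 2.21 were measured for Krtap11-1, Krtap13-1, Krtap24-1, Krtap26-1 and Krtap27-1. The remaining single genes and small subfamilies elsewhere, Krtap10-10, Krtap12-1, Krtap28-13 and Krtap31-1, were at 1.94, 1.86, 1.97 and 2.02, and none of the 4 was called.

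**Figure D4:**
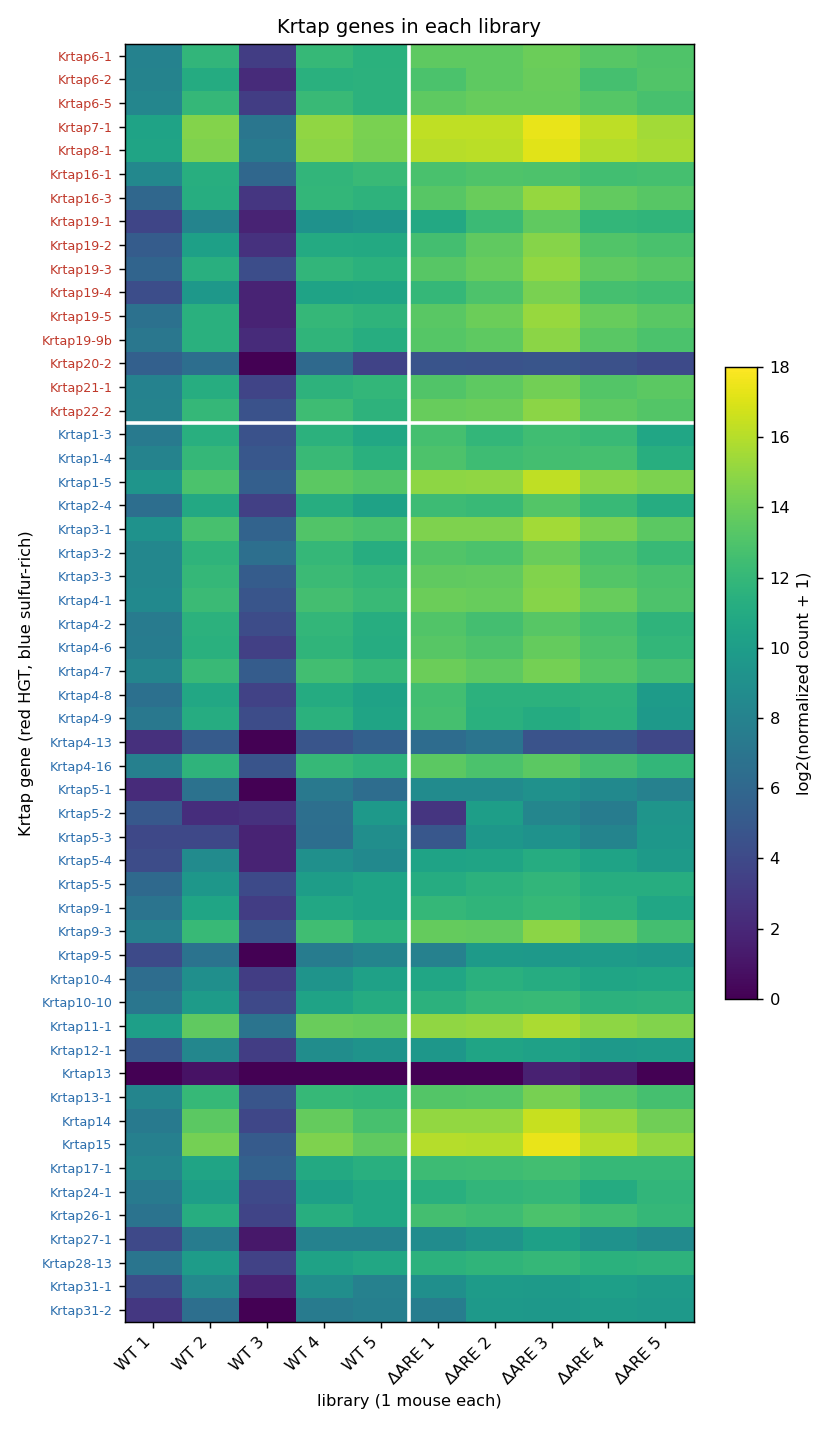
Log2 of normalized count plus 1 for the 54 Krtap genes (rows, HGT above and sulfur-rich below the white line) in the 10 libraries (columns). WT replicate 3 and then WT replicate 1 are the darkest columns, Zfp36ΔARE replicate 3 is the brightest, and Krtap20-2, Krtap5-2 and Krtap4-13 break the pattern of their neighbors.

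The HGT genes had the larger differences as a class, by medians of 2.64 against 2.08 on the log2 scale, and by ratios of mean summed CPM of 6.13 against 5.10. Without WT replicates 1 and 3 the medians were 1.94 and 1.38, and the ratios 3.75 and 3.13. Part of this gap went with the Krtap19 genes and Krtap16-3, which were grouped after their values were seen. Those 7 genes had a median of 3.16, and the other 8 HGT genes, Krtap16-1 left out, had a median of 2.45. The Krtap19 subfamily took 3.0%, 5.23%, 2.72%, 6.09% and 6.91% of Krtap counts in WT replicates 1 to 5 and 6.95%, 10.3%, 12.5%, 9.74% and 11.2% in Zfp36ΔARE replicates 1 to 5. All 5 Zfp36ΔARE values were above the WT values, the first by a small margin. By contrast, Krtap7-1 took 10.6% to 13.3% in WT and 11.7% to 13.2% in Zfp36ΔARE libraries, and Krtap8-1 11.1% to 13.1% and 10.5% to 12.5%, so both ranges overlapped. The Krtap4 subfamily had the reverse arrangement, with 10.7% to 12.4% of Krtap counts in WT and 6.66% to 12.0% in Zfp36ΔARE libraries, and again Zfp36ΔARE replicate 1 was the value inside the WT range.

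The ratio of summed HGT to sulfur-rich CPM was 0.702, 0.694, 0.571, 0.730 and 0.748 in WT replicates 1 to 5. In Zfp36ΔARE replicates 1 to 5 it was 0.738, 0.906, 0.905, 0.802 and 1.02. Zfp36ΔARE replicate 1 lay below WT replicate 5, so the groups overlapped by that library alone, which is also the one with the WT pattern of Xist and Y-linked counts. The part of sex in the class ratio was not tested.

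Hair keratins, the filament partners of the KAPs, differed in parallel. Of 15 tested hair keratins, 4 rose in edgeR (Krt32, Krt35, Krt36 and Krt84), where 1.67% of all tested genes did. All 15 had positive log2 fold changes, and the median was 2.25. None fell in edgeR, DESeq2 or limma-voom, against 6.64%, 6.97% and 5.89% of all tested genes. At an unadjusted edgeR p under 0.05, 13 hair keratins were higher and 0 lower, where 22.5% and 24.6% of all tested genes were. Without WT replicates 1 and 3, edgeR called 11 of the 15 higher and 0 lower, against 1.24% and 2.11% of all tested genes. The median was then 1.56, and 2 of the 4 (Krt32 and Krt36) were among the 11. Their summed level was 90.5 to 4068 CPM in WT and 6423 to 18077 in Zfp36ΔARE libraries. The ratio of summed Krtap to summed hair keratin CPM was 0.769, 2.41, 0.520, 2.31 and 1.82 in WT replicates 1 to 5 and 2.56, 2.28, 2.71, 2.62 and 2.34 in Zfp36ΔARE replicates 1 to 5. WT replicates 1 and 3 were again the low values, and Zfp36ΔARE replicates 2 and 5 lay inside the WT range. The same ratio for HGT genes was 0.189 to 0.989 in WT and 1.08 to 1.29 in Zfp36ΔARE libraries, without overlap. For sulfur-rich genes it was 0.331 to 1.43 and 1.16 to 1.47, with overlap.

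**Figure D5:**
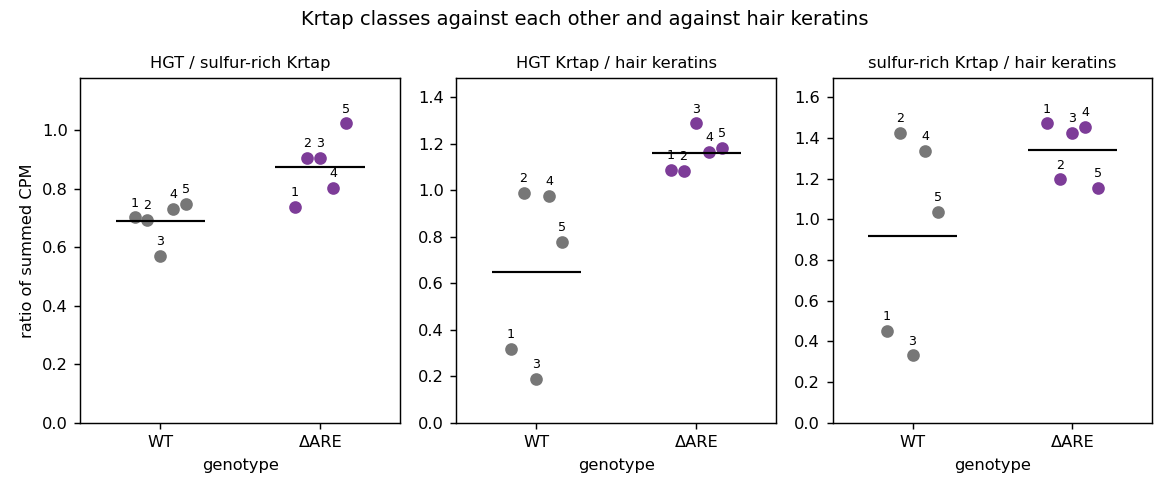
Ratios of summed CPM by genotype: HGT over sulfur-rich Krtap genes (left), HGT Krtap genes over hair keratins (middle) and sulfur-rich Krtap genes over hair keratins (right). Points are libraries numbered by replicate and bars are means of 5, and the genotypes separate only in the middle panel, at 0.189 to 0.989 against 1.08 to 1.29.

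The mean log2 level of the hair keratins was also put in the edgeR model as a covariate. With it, the median differences between genotypes in Krtap genes were near 0. Medians were -0.10 for HGT and -0.31 for sulfur-rich genes, 10 of 16 and 32 of 37 were negative, and 0 genes were called in either direction, with 0 higher and 5 lower when the unadjusted p was under 0.05. Of all tested genes 0.00643% were called higher and 0.0901% lower with the covariate, and 5.94% were higher and 9.62% lower at the unadjusted threshold. Krtap19-1, the largest difference without the covariate, was then at 0.76 (SE 0.51, edgeR adjusted p = 0.519). Some single genes lay further below 0, such as Krtap20-2 at -2.34 (SE 0.83, edgeR adjusted p = 0.216) and Krtap4-9 at -1.09. The covariate and genotype were correlated (r = 0.68 over the 10 libraries), so what belongs to genotype and what to the amount of hair keratin mRNA cannot be told apart by this model.

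Other follicle genes were read from the same test. Of 14 regulators of the matrix and shaft, 5 rose and 0 fell in edgeR, with 11 higher and 0 lower where p before adjustment was under 0.05, and DESeq2 and limma-voom also called 5 higher and 0 lower. Of all tested genes, 22.5% were higher and 24.6% lower at that unadjusted threshold. Calls by edgeR, DESeq2 and limma-voom covered 1.67%, 2.2% and 2.23% of all tested genes as higher, and 6.64%, 6.97% and 5.89% as lower. Without WT replicates 1 and 3, edgeR called 1 of the 14 higher (Msx2), against 1.24% of all tested genes. The median was then 0.53 in place of 0.76. Hoxc13, a homeobox factor of hair differentiation, was at 428 to 2342 normalized counts in WT and 3277 to 4688 in Zfp36ΔARE libraries, with a log2 fold change of 1.29 (SE 0.37, edgeR adjusted p = 0.0243). Foxn1, Lef1, Msx2 and Dlx3 rose by 1.49, 1.16, 1.48 and 1.17. Of 9 genes for cross-linking and keratin processing 3 rose, Tgm3, which encodes a hair transglutaminase, by 1.91 (SE 0.43, edgeR adjusted p = 0.0117), and with it Padi4 and Dsc2, while 2 (Tgm3 and S100a3) were called higher without WT replicates 1 and 3. Inner root sheath genes, which encode the sheath around the growing shaft, had a median of 1.38, and edgeR called 0 of 9 in either direction, with 7 higher and 0 lower where p before adjustment was under 0.05. DESeq2 called 3 and limma-voom 1 of these higher and 0 lower, and without WT replicates 1 and 3 edgeR called 0, with a median of 0.85.

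Markers of other skin cells also moved between the genotypes. For comparison, edgeR called 1.67% of all tested genes higher and 6.64% lower. Without WT replicates 1 and 3 it called 1.24% and 2.11%. Summed macrophage markers were at 736 to 1410 CPM in WT and 445 to 634 in Zfp36ΔARE libraries, and 11 of 12 fell (9 without WT replicates 1 and 3). Adipocyte markers were at 1979 to 3965 and 1364 to 1776, with 6 of 10 lower, and skeletal muscle markers at 10228 to 50710 and 5844 to 13007, with 11 of 12 lower. Without WT replicates 1 and 3, 1 adipocyte marker (Cidec) and 1 muscle marker (Atp2a1) were called lower, and the medians were -0.74 in place of -1.07 and -0.90 in place of -1.51. WT replicate 3, the lowest Krtap library, had the highest muscle and adipocyte sums. Melanocyte markers were at 177 to 537 in WT and 544 to 965 in Zfp36ΔARE libraries, with 6 of 8 higher, and 3 without WT replicates 1 and 3. Of 10 interfollicular keratinocyte markers edgeR and limma-voom called 0 and DESeq2 called 1 higher. At an unadjusted edgeR p under 0.05, 2 were higher and 4 lower, where 22.5% and 24.6% of all tested genes were. The sums of these markers overlapped, at 16583 to 23862 in WT and 12263 to 25861 in Zfp36ΔARE libraries. Defining markers of these cell types were present in both genotypes, and the part of cell composition in the Krtap differences was not tested.

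Zfp36ΔARE libraries also differed among themselves. Coefficients of variation over the 5 Zfp36ΔARE libraries ran from 13.9% to 76.4% for HGT genes (median 51.4%) and from 15.1% to 95.1% for sulfur-rich genes (median 41.2%). The smallest was that of Krtap16-1 (7267 ± 1011 normalized counts, SD, n = 5), and the largest that of Krtap5-2 (451 ± 429 normalized counts, SD, n = 5). Zfp36ΔARE replicate 3 was highest of the 5 for 14 of 16 HGT and 24 of 37 sulfur-rich genes, and Zfp36ΔARE replicate 5 was lowest for 9 and 26. Zfp36ΔARE replicate 1 was highest for 0 HGT and 5 sulfur-rich genes, and lowest for 5 and 8.

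Promoter windows from RefSeq (GRCm38.p6), each reaching from 250 bases before to 50 after the start of transcription, were found for 49 of the 54 genes and searched for a TATA box. The 6 letters TATAAA, on the gene's strand and starting 40 to 20 bases before the start, were in 29 of the 49 windows (59.2%), against 1.99% of the 32851 windows of all genes. They were in 23 of 34 sulfur-rich windows (67.6%) and 6 of 15 HGT windows (40%). Anywhere in the window on either strand they were in 81.6% of Krtap and 13.6% of all windows. By class, they were anywhere in 29 of 34 sulfur-rich (85.3%) and 11 of 15 HGT (73.3%) windows. Only these exact letters were counted, so the class shares depend on spelling and on the annotated start. The letters CTTTGAA, a form of the site bound by Lef1 and its relatives, were in 18.4% of Krtap and 5.14% of all windows. The 60 bases before the start of 4 genes are shown with TATAAA in capitals, to set a called gene (Krtap31-2), an abundant gene (Krtap8-1) and the exception (Krtap20-2) beside the gene with the largest difference (Krtap19-1).
Krtap31-2, chr11:99936231-99936290, plus strand: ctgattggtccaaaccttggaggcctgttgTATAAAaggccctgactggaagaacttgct
Krtap8-1, chr16:89487953-89488012, minus strand: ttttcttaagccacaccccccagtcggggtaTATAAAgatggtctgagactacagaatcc
Krtap20-2, chr16:89205801-89205860, plus strand: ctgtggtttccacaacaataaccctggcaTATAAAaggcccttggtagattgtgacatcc
Krtap19-1, chr16:88869411-88869470, minus strand: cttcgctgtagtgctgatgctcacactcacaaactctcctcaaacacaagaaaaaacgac
Krtap20-2, whose counts overlapped between genotypes, carried the letters starting at position -31 relative to the start of transcription. That was near their start at -29 in Krtap8-1 and -30 in Krtap31-2. Krtap19-1 did not have these exact letters anywhere in its promoter window. A similar stretch, tatataag, lay directly before the bases shown for Krtap19-1, and inexact matches were not searched for.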

How the data were processed

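RNA from treated, nontumoral back skin of 5 WT and 5 Zfp36ΔARE mice was sequenced paired-end on a HiSeq 2500. After a filter on mean read quality, the authors mapped reads to the mm10 genome with STAR 2.5.2b and counted them per gene with featureCounts (Subread 1.5.0-p1), and the deposited values are whole-number counts per gene and library. How multiply mapped reads and strand were handled is not given in the sources used here. Of 24454 rows, 2 without a gene name (7.38e-05% of counts) were left out. Libraries held 19595024 to 36419553 counts. Groups and replicate numbers come from the sample titles, and p-values measure the spread between mice.

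Genes passing filterByExpr (15543) were fitted in edgeR 4.0.16 (TMM, robust quasi-likelihood test) with genotype as the only term, and p-values were adjusted by Benjamini-Hochberg over all of them. Normalized counts are counts scaled to the mean effective library size, and CPM uses effective sizes. Fold changes are Zfp36ΔARE against WT. Alternatives were DESeq2 1.42.0, limma-voom (limma 3.58.1), other scalings and filters, a replicate block, leaving out libraries, and the mean log2 CPM of 15 hair keratins as a covariate. The script was tested on simulated data. Named were the most counted tested gene of each subfamily, the 3 largest increases, the 3 smallest or most negative changes, and up to 3 genes with the most counts in each other list. Other genes, including the called Krtap5-1, Krtap5-4, Krtap9-5 and Krtap31-2, were named after their values were seen. The members and lists were chosen with earlier results of these data known. Protein composition was computed from GENCODE coding sequences, and positions and promoters come from RefSeq GRCm38.p6.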

Additional observations from a re-analysis of the deposited data

Results flagged for a closer look

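In groups of 5 libraries, a library was picked out when its gap to the nearest other took more of the group's range than Dixon's 95% limit allows. Among 123 groups examined 16 were picked out, where chance gives about 6.15, and genes of 1 program are not independent.

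Zfp36ΔARE replicate 3 was the high library for 10 Krtap genes. Its normalized counts were 78990 for Krtap1-5, 172019 for Krtap7-1, 147230 for Krtap8-1 and 19833 for Krtap13-1. They were 94172 for Krtap14, 169644 for Krtap15 and 35846 for Krtap16-3. In the Krtap19 subfamily they were 37834 for Krtap19-5, 20970 for Krtap19-4 and 27625 for Krtap19-2. The hair keratin Krt81 (73485 normalized counts) and the muscle gene Atp2a1 (51236) were high in the same library. Without Zfp36ΔARE replicate 3 the HGT median log2 fold change was 2.41 and the sulfur-rich median 1.89.

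Krtap5-2 was high in WT replicate 5, at 850 normalized counts against 4.04 to 94.1 in the other WT libraries. Krt1, an epidermal keratin, was low in WT replicate 1, at 76967 normalized counts against 120632 to 135788.

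Zfp36ΔARE replicate 1 had 21047 normalized counts of Xist, against 5.27 to 16.5 in the other Zfp36ΔARE libraries, and 0.749 of the Y-linked Ddx3y, against 1164 to 1483.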

How the results depend on the processing

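The number of Krtap genes called higher depended on the tool and the libraries, and the direction of the class medians changed only with the hair keratin covariate. edgeR called 7 (3 HGT and 4 sulfur-rich), DESeq2 25 (12 and 13) and limma-voom 26 (10 and 16), and both held the 7. With no filter edgeR called 1 (1 and 0), and with at least 10 counts in every library 0 (0 and 0) of 27 tested. Size factors from DESeq2 and a mean count of at least 10 gave 7, and total counts without TMM 5. Leaving out WT replicates 1 and 3 gave 43 (14 and 29). Leaving out 1 library at a time gave 1 to 18 in all, 1 to 11 HGT and 0 to 7 sulfur-rich genes. The count was 18 without WT replicate 3, 1 without WT replicate 1 or Zfp36ΔARE replicate 2, 3 or 4, 2 without WT replicate 2 or Zfp36ΔARE replicate 5, and 3 without Zfp36ΔARE replicate 1. HGT medians were then 2.32 to 3.01 and sulfur-rich medians 1.76 to 2.42, against 4.12 and 3.33 under limma-voom. The cause of these shifts was not tested. Classes set by composition gave medians of 2.62 and 2.06.

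Same-numbered libraries of the 2 genotypes did not deviate together (correlations -0.18 to 0.08). The labels do not say whether the numbers pair the mice, and these correlations cannot decide it. With the replicate block 1 Krtap gene was called (0 HGT and 1 sulfur-rich), with medians of 3.38 and 2.80.

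With the covariate 0 genes were called (0 HGT, 0 sulfur-rich), and the medians reversed to -0.10 and -0.31. Log2 fold changes reversed for HGT genes Krtap6-5 (-0.43), Krtap7-1 (-0.18), Krtap8-1 (-0.086), Krtap16-3 (-0.14), Krtap19-5 (-0.15) and Krtap22-2 (-0.047). Among sulfur-rich genes they reversed for Krtap2-4 (-0.62), Krtap3-1 (-0.17), Krtap4-1 (-0.37), Krtap4-9 (-1.09), Krtap5-2 (-0.76), Krtap5-5 (-0.093), Krtap9-3 (-0.27), Krtap10-10 (-0.26), Krtap11-1 (-0.26), Krtap12-1 (-0.31), Krtap13-1 (-0.44), Krtap14 (-0.65), Krtap15 (-0.34), Krtap24-1 (-0.042), Krtap26-1 (-0.37), Krtap27-1 (-0.45), Krtap28-13 (-0.21) and Krtap31-1 (-0.11). The same held for Tchh (-0.25), Krt71 (-0.21), Krt25 (-0.12), Vdr (-0.23) and Padi3 (-0.34). Krt33a (-0.084), Krt86 (-0.18) and Krt81 (-0.15) also reversed. These 3 are among the hair keratins that make up the covariate, so their values near 0 follow from its construction. Krtap20-2 reversed to 0.12 under limma-voom, and Krt5 (-0.068 with all libraries) ran from -0.19 to 0.035 when a library was left out.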
